A study of Homo sapiens with 5 samples.

Results

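Cholesterol, isoprenoid and fatty acid synthesis in TOV21G cells, an established human ovarian clear cell carcinoma line, is described here through 36 genes, chosen by name from the 28442 gene rows of the deposited table. All 36 were found, each as a single row. The study set libraries with repressed activity of HDAC6, a mainly cytoplasmic deacetylase, against controls, and its title ties HDAC6 to ovarian cancers with mutated ARID1A, a chromatin remodelling subunit. Repression was by an HDAC6 hairpin (shHDAC6), by the inhibitor ACY1215 or by the inhibitor CAY10603. Against these stood cells with a control shRNA (shControl) and cells given vehicle, read from the column headed DMSO, a common solvent. Each of these 5 treatments had 1 library, with total counts from 43498805 (vehicle) to 57442767 (shControl). Hairpin cells were infected with virus and selected in puromycin, which the labels do not state for the drug experiment, and the drug doses, the times and the hairpin used for the library are not given. The 36 members together took between 0.233% (CAY10603) and 0.263% (vehicle) of all counts.

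Cells make cholesterol from acetyl-CoA through mevalonate, which also yields the isoprenoids used to anchor proteins to membranes. When membrane sterol is low, the escort protein SCAP carries the SREBP transcription factors from the endoplasmic reticulum to the Golgi, where they are cut and released to switch on genes of sterol and fatty acid synthesis. INSIG1 holds SCAP back when sterol is plentiful. In the opposite state, oxidised sterols activate the nuclear receptors LXR, which raise the exporters ABCA1 and ABCG1.

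Among markers of epithelial and clear cell carcinoma cells, KRT8, KRT18, EPCAM and CD24 were detected in all 5 libraries, while NAPSA and KRT7 stayed under 1 CPM in each, and CDH1 passed 1 CPM in ACY1215 only. CPM is a count divided by library size, here adjusted by TMM (trimmed mean of M values). The 4 leukocyte markers summed to at most 2.13 CPM and the 3 endothelial ones to at most 0.476 CPM. The 5 fibroblast markers summed to between 25.0 CPM (shHDAC6) and 38.1 CPM (ACY1215), most of it COL1A2 in each library. HDAC6 itself stood at 29.2 CPM in shHDAC6 against 48.0 CPM in shControl, and at 33.2 CPM in ACY1215 and 48.2 CPM in CAY10603 against 51.1 CPM in vehicle, so its transcript was lower in shHDAC6 and in ACY1215, and near its control in CAY10603.

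Many sterol genes carry, close to their start, a sterol regulatory element bound by SREBP and a CCAAT box bound by the partner factor NF-Y. RefSeq promoter windows (build GRCh38.p14, 250 bases before to 50 after a start) were at hand for 30 of the 36 members, as 43 windows. The letters CCAAT, read on both strands, stood in 24 of these 43 windows (55.8%) and in 34.6% of the 35116 promoter windows of all genes. The letters TCACNCCAC, a sterol regulatory element core, stood in 1 of the 43, against 1.13% of all windows, and the E-box CACGTG in 4 (9.30%), against 7.26%. The next lines show the 250 bases before the start of members that the results below turn on, written 5′ to 3′ on the gene's own strand with matches to these 3 motifs in capitals; the matches are letters in a window, not tested sites.
SREBF2 (chr22:41832855-41833104, plus strand): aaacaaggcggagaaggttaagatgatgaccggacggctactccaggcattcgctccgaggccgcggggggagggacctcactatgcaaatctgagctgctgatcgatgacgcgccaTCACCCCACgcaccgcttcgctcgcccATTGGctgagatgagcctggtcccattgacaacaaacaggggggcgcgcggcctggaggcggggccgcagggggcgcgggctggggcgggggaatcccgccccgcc
MVK (chr12:109573544-109573793, plus strand): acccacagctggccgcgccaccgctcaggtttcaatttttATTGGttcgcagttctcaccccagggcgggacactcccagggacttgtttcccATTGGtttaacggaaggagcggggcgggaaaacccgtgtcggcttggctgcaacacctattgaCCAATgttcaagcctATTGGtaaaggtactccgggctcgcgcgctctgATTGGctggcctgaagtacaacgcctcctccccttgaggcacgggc
EBP (chrX:48521558-48521807, plus strand): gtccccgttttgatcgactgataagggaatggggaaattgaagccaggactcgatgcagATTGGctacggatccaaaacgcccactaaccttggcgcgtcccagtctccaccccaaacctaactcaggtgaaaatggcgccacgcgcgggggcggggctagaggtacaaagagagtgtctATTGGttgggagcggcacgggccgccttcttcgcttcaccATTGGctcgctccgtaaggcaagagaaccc
STARD4 (chr5:111512536-111512785, minus strand): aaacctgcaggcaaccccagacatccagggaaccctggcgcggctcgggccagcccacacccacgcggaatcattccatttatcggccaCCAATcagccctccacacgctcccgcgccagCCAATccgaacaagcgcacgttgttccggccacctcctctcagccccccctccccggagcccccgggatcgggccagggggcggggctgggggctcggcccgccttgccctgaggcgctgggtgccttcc
SREBF2 was the member whose window held the sterol element letters, and it held 1 CCAAT as well. The MVK window held 5 CCAAT matches, the EBP window 3 and the STARD4 window 2. The coordinates belong to the RefSeq build and not to the hg19 build of the counts.

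Between genes, levels were compared per length with the authors' FPKM, which divides fragments by transcript length and library size. The highest member in each library was FDPS, farnesyl diphosphate synthase at the branch point of sterols and isoprenoids, at 121 to 143 FPKM over the 5 libraries. By the mean over the 5 libraries ACLY, which makes cytosolic acetyl-CoA from citrate, came next at 69.3 to 98.0 FPKM, then CYP51A1, the lanosterol demethylase, at 70.5 to 77.5 FPKM and SCD, stearoyl-CoA desaturase, at 42.4 to 75.9 FPKM. These 3 ranges overlapped, and their order differed between libraries. At the low end stood MVK, mevalonate kinase (1.42 to 3.03 FPKM), FNTB, the beta subunit of farnesyltransferase (1.33 to 2.60 FPKM), and the exporters ABCG1 (0.540 to 3.40 FPKM) and ABCA1 (0.0900 to 0.310 FPKM). Within the mevalonate steps the level therefore ran from MVK, lowest, to FDPS, highest, in each library.

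**Figure D1:**
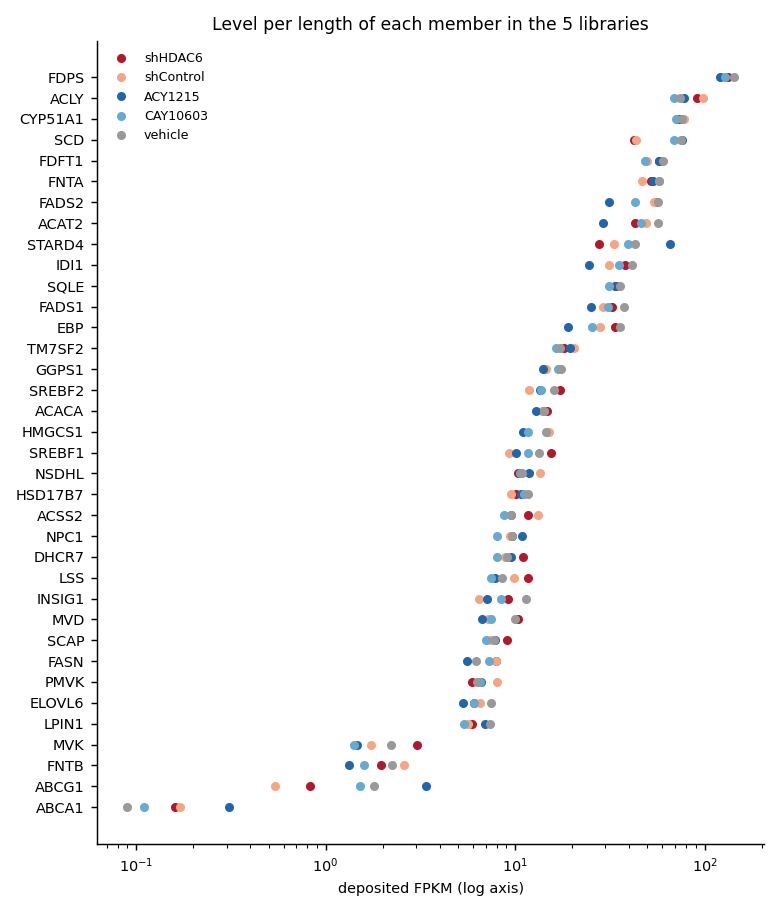
Deposited FPKM (log axis) of the 36 members, ordered by their mean, with 1 point per library and colours for the 5 treatments. FDPS lies highest and ABCA1 lowest, and the points of STARD4, ABCG1 and SCD are spread more widely than those of CYP51A1 and SQLE.

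Members differed in how steady they were. Between its highest and lowest library CYP51A1 varied 1.09-fold in CPM, ACACA 1.11-fold and SQLE, squalene epoxidase, 1.13-fold. The widest ratios were those of ABCG1 (6.60-fold), ABCA1 (3.60-fold) and STARD4 (2.58-fold), all transport genes.

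The only comparison with a test set the 3 libraries with repressed HDAC6 against the 2 controls, with experiment type (hairpin or drug) as a covariate. No member passed it. At an edgeR adjusted p under 0.05, 0 of 13449 genes passed (0%), and so 0 of 36 members and 0 of 45 other genes of the pathway. At an unadjusted p under 0.05 there were 0 members, against 100 genes in all (0.744%), and DESeq2 gave 0 genes adjusted, and 112 genes with 0 members unadjusted. Leaving out a drug moved the unadjusted edgeR counts: without ACY1215 there were 208 genes with 0 members, and without CAY10603 111 genes with 1 member, ACAT2. Without vehicle the group term rested on shHDAC6 against shControl alone, with 1 library on each side, so no count is given. The members' median log2 fold was -0.018 against 0.0016 for all genes, with 13 members above 0 and 23 below. The smallest p-values among the members were those of FNTB (log2 fold -0.49, SE 0.23), ACAT2 (-0.38, SE 0.21) and ELOVL6 (-0.23, SE 0.16), each with an edgeR adjusted p of 1.00. The fit has 2 residual degrees of freedom and counts differences between the 3 interventions as spread. Nothing in the labels says that libraries came from repeated cultures, so its p-values measure only the spread between these libraries.

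Single interventions have 1 library on each side and carry no test. Each is given as a log2 fold, intervention over control, computed from scaled CPM after adding a prior count of 2, and the 95% intervals cover counting error only. Members were counted where the mean over the 5 libraries reached 5 CPM, which 33 of 36 did. MVK, ABCA1 and ABCG1 lay below and are given by value. A gene was counted as apart at 1.5-fold, a log2 fold of 0.58, and the same share of all 10741 genes above 5 CPM stands beside each count. In bulk libraries less RNA per cell and fewer cells making it cannot be told apart.

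**Figure D2:**
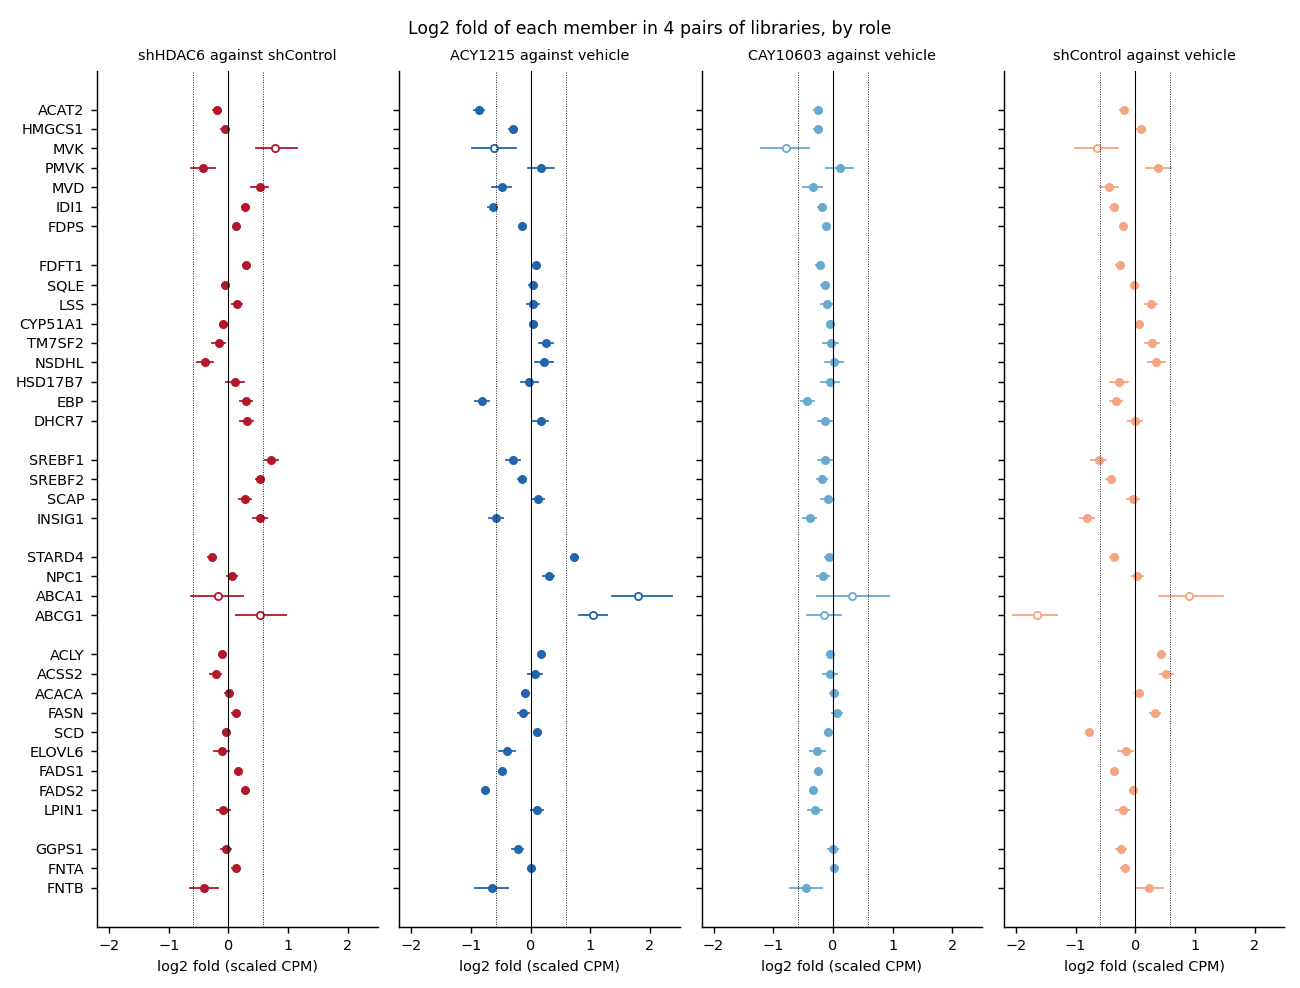
Log2 fold of TMM-scaled CPM (x axis) for each of the 36 members (rows, grouped by role in the order mevalonate, sterol, SREBP control, sterol transport, fatty acid, prenylation) in 4 pairs of libraries. Bars are 95% counting intervals, dotted lines mark 1.5-fold, and open points are the 3 members under a mean of 5 CPM; ABCA1 and ABCG1 lie farthest right in ACY1215 against vehicle, and SREBF1, SREBF2 and INSIG1 lie right of 0 in shHDAC6 against shControl and left of 0 in shControl against vehicle.

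In the shHDAC6 library the transcripts of SREBF1, SREBF2, SCAP and INSIG1 were higher than in shControl, while those of the SREBP proteases MBTPS1 and MBTPS2 and of INSIG2 were lower. SREBF1, which encodes the SREBP that mainly drives fatty acid genes, stood at 30.5 CPM in shHDAC6 against 18.6 CPM in shControl, and at 23.3 CPM in ACY1215 and 25.9 CPM in CAY10603 against 28.5 CPM in vehicle. It was highest in shHDAC6 and lowest in shControl, with a log2 fold between these of 0.72 (counting interval 0.61 to 0.83). SREBF2, which encodes the SREBP that mainly drives sterol genes, stood at 70.5 CPM in shHDAC6 against 48.7 CPM in shControl, and at 58.5 CPM in ACY1215 and 57.0 CPM in CAY10603 against 64.7 CPM in vehicle. Again shHDAC6 was highest and shControl lowest, with a log2 fold of 0.53 (counting interval 0.46 to 0.60). INSIG1 stood at 25.3 CPM in shHDAC6 against 17.6 CPM in shControl, and at 20.6 CPM in ACY1215 and 23.5 CPM in CAY10603 against 30.8 CPM in vehicle, and its highest library was vehicle; the log2 fold of shHDAC6 over shControl was 0.52 (counting interval 0.41 to 0.64). SCAP had 0.28 (counting interval 0.18 to 0.37), so the 4 members of SREBP control were on the higher side. Other genes of the same machinery, which are not members, were on the lower side, with MBTPS1 at -0.12 (counting interval -0.18 to -0.074), MBTPS2 at -0.23 (counting interval -0.41 to -0.052) and INSIG2 at -0.19 (counting interval -0.32 to -0.056).

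SREBF1 was also the 1 of 33 members at least 1.5-fold higher in shHDAC6, against 2.82% of all genes. None of the 33 was at least 1.5-fold lower, against 2.20% of all genes. At any size 18 of 33 were higher, near the 50.7% of all genes, with a median log2 fold of 0.062 against 0.0038 for all genes. In the mevalonate steps the counted members were evenly split. MVD, which forms isopentenyl diphosphate, had 0.52 (counting interval 0.38 to 0.67) and IDI1, its isomerase, 0.29 (counting interval 0.22 to 0.35). PMVK, phosphomevalonate kinase, had -0.43 (counting interval -0.63 to -0.23), opposite in sign to its neighbours in the pathway. MVK stood at 3.57 CPM in shHDAC6 against 2.05 CPM in shControl, and at 2.09 CPM in ACY1215 and 1.84 CPM in CAY10603 against 3.21 CPM in vehicle, from 188 counts in shHDAC6 and 118 in shControl, a log2 fold of 0.79 (counting interval 0.46 to 1.14).

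Of the 9 sterol enzymes 5 were higher and 4 lower in shHDAC6. FDFT1, squalene synthase, had 0.29, DHCR7, the last reductase of one branch, 0.31, and LSS, lanosterol synthase, 0.15. On the other side NSDHL, which removes methyl groups from the sterol ring, had -0.39 (counting interval -0.52 to -0.25) and TM7SF2, a sterol reductase, -0.16. Close to shControl lay SQLE at -0.049 and CYP51A1 at -0.085. Fatty acid genes ranged from -0.21 (ACSS2, which makes acetyl-CoA from acetate) to 0.28 (FADS2, a desaturase of polyunsaturated fatty acids). ACAT2 had -0.18 and HMGCS1 -0.058. Among 42 other genes of the pathway above 5 CPM, 0 were at least 1.5-fold higher and 1 was at least 1.5-fold lower, SCD5, a second stearoyl-CoA desaturase, with -0.74 (counting interval -0.82 to -0.66).

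The higher level of SREBF1, SREBF2 and INSIG1 depended on the control, while that of SCAP moved little. With vehicle in place of shControl the shHDAC6 log2 folds were 0.10 for SREBF1, 0.12 for SREBF2 and -0.29 for INSIG1. SCAP had 0.24, against 0.28 over shControl. SREBF1 was then no longer past 1.5-fold, and INSIG1 changed sign. Of the 33 counted members 11 lay above both controls in shHDAC6, against 34.3% of all genes, and 11 below both, against 31.6%. Genes of the G2 and M phases of the cell cycle differed in this pair too: their summed level over 20 genes was 3411 CPM in shHDAC6 and 2499 CPM in shControl, and 1637 CPM in ACY1215 and 3562 CPM in CAY10603 against 3608 CPM in vehicle. Their part in these results was not tested.

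**Figure D3:**
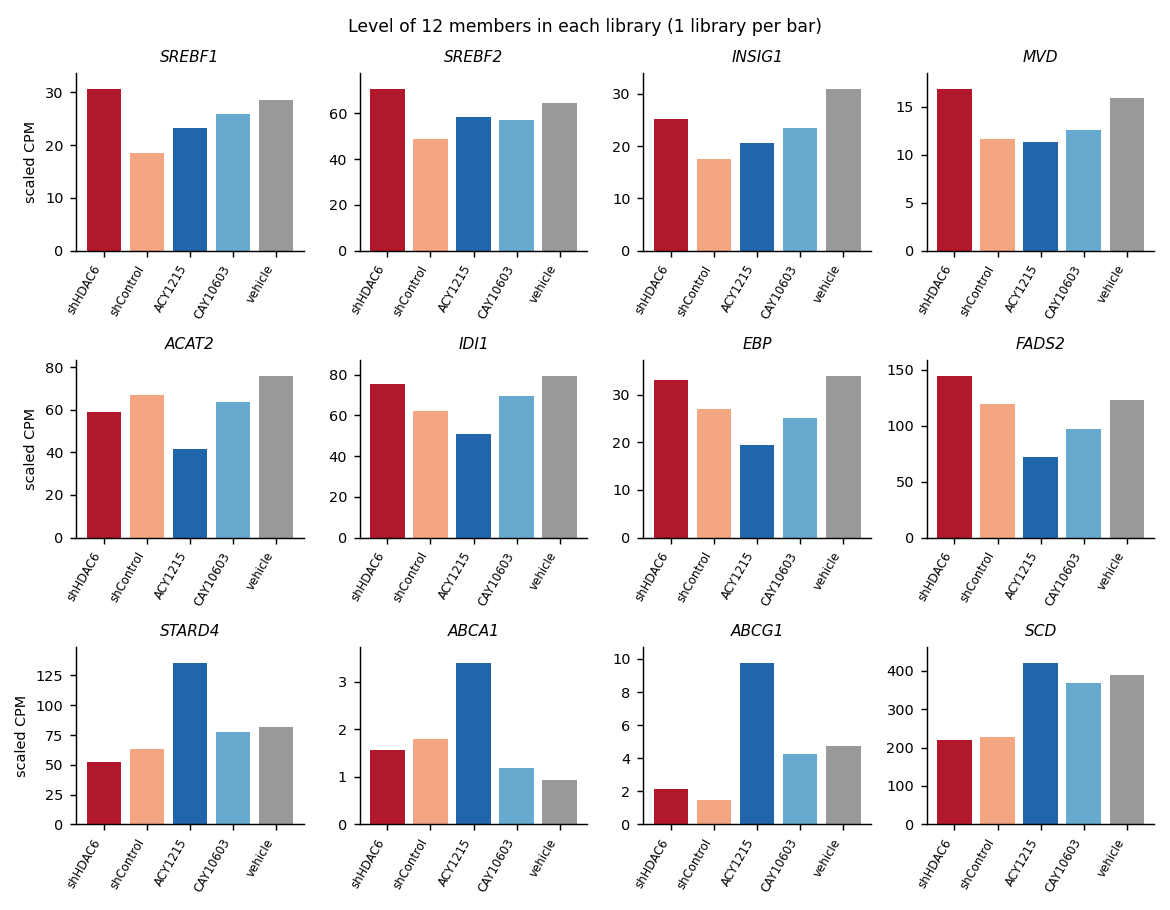
TMM-scaled CPM (y axis, from 0) of 12 members in each library, 1 library per bar, in the order shHDAC6, shControl, ACY1215, CAY10603, vehicle. ACAT2, IDI1, EBP and FADS2 are lowest in ACY1215, STARD4, ABCA1 and ABCG1 are highest there, and SCD is lower in both hairpin libraries than in the 3 drug experiment libraries.

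In the ACY1215 library several early and late synthesis enzymes were lower than in vehicle, and genes that move or export sterol were higher. ACAT2, which joins acetyl-CoA units at the head of the pathway, stood at 58.8 CPM in shHDAC6 against 66.8 CPM in shControl, and at 41.6 CPM in ACY1215 and 63.6 CPM in CAY10603 against 75.7 CPM in vehicle. The ACY1215 value was below the other 4, with a log2 fold of -0.86 (counting interval -0.94 to -0.79). EBP, the sterol isomerase, stood at 33.0 CPM in shHDAC6 against 27.0 CPM in shControl, and at 19.3 CPM in ACY1215 and 25.1 CPM in CAY10603 against 33.9 CPM in vehicle, again lowest in ACY1215, with a log2 fold of -0.81 (counting interval -0.93 to -0.69). FADS2 stood at 144 CPM in shHDAC6 against 119 CPM in shControl, and at 72.3 CPM in ACY1215 and 97.0 CPM in CAY10603 against 122 CPM in vehicle, and its log2 fold was -0.76 (counting interval -0.82 to -0.70). IDI1 stood at 75.6 CPM in shHDAC6 against 62.0 CPM in shControl, and at 50.9 CPM in ACY1215 and 69.5 CPM in CAY10603 against 79.3 CPM in vehicle, lowest in ACY1215, with a log2 fold of -0.64 (counting interval -0.71 to -0.57).

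With FNTB these made 5 of 33 members at least 1.5-fold lower in ACY1215, against 7.76% of all genes. Short of 1.5-fold were INSIG1 at -0.58 (counting interval -0.70 to -0.46), MVD at -0.48 (counting interval -0.64 to -0.32) and FADS1, the desaturase next to FADS2, at -0.48 (counting interval -0.53 to -0.43). HMGCS1, which forms HMG-CoA, had -0.30 and ELOVL6, a fatty acid elongase, -0.40. MVK, below 5 CPM, had -0.61 (counting interval -0.99 to -0.25), from 109 counts in ACY1215 and 143 in vehicle. MMAB, a cobalamin enzyme gene that lies head to head with MVK, had -0.99 (counting interval -1.15 to -0.83).

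The middle of the sterol pathway did not follow the enzymes at its ends. SQLE had 0.036 (counting interval -0.022 to 0.094), LSS 0.035 (counting interval -0.067 to 0.14) and CYP51A1 0.038 (counting interval -0.0014 to 0.078), intervals that all include 0. NSDHL (0.22), TM7SF2 (0.26) and DHCR7 (0.17) lay above vehicle, so by TMM scaling 7 of the 9 sterol enzymes were higher at any size and EBP was the one far below. The main lipogenic enzymes were also near vehicle, with ACLY at 0.17, ACACA, which makes malonyl-CoA, at -0.088, FASN, fatty acid synthase, at -0.12 and SCD at 0.11. LPIN1, a phosphatidate phosphatase, had 0.11, and HSD17B7, a sterol ketoreductase, -0.022. The fatty acid genes farthest below vehicle were FADS2, FADS1 and ELOVL6, which desaturate or lengthen fatty acids; the FADS1 and FADS2 rows overlap.

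Sterol transport genes were all higher in ACY1215. STARD4, a cytosolic sterol carrier, stood at 52.5 CPM in shHDAC6 against 63.4 CPM in shControl, and at 135 CPM in ACY1215 and 77.6 CPM in CAY10603 against 81.4 CPM in vehicle. It was the 1 of 33 members at least 1.5-fold higher, against 5.86% of all genes, with a log2 fold of 0.73 (counting interval 0.68 to 0.79). ABCG1, which exports sterol to lipoprotein particles, stood at 2.14 CPM in shHDAC6 against 1.48 CPM in shControl, and at 9.75 CPM in ACY1215 and 4.24 CPM in CAY10603 against 4.71 CPM in vehicle, from 508 counts in ACY1215 and 210 in vehicle, a log2 fold of 1.04 (counting interval 0.81 to 1.29). ABCA1, which exports sterol to lipid-poor apolipoprotein, stood at 1.57 CPM in shHDAC6 against 1.79 CPM in shControl, and at 3.40 CPM in ACY1215 and 1.18 CPM in CAY10603 against 0.942 CPM in vehicle, from 177 counts in ACY1215 and 42 in vehicle, a log2 fold of 1.81 (counting interval 1.36 to 2.37). For each of these 3 the ACY1215 library was the highest of the 5. NPC1, which releases cholesterol from lysosomes, had 0.30 (counting interval 0.21 to 0.40). ABCA1 and ABCG1 are low in this line, and the counting intervals do not cover the spread between cultures.

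No counted member was at least 2-fold apart in ACY1215, against 4.70% of all genes. At any size 16 of 33 were higher, against 5367 of 10741 genes, with a median of -0.022 against -0.00025 for all genes. Scaled by the library total, the median of all genes moved to -0.10 and 10 of 33 members were higher, so signs of the members near 0 depend on the scaling. Among 42 other genes of the pathway 6 were at least 1.5-fold higher and 1 was lower. The higher ones were LIPA, the lysosomal acid lipase that frees cholesterol from its esters (1.08), LPIN3, a phosphatidate phosphatase (0.85), INSIG2, a relative of INSIG1 (0.77), SCARB1, a lipoprotein receptor (0.70), ME1, malic enzyme, which makes NADPH (0.69), and FADS3 (0.67). INSIG1 and INSIG2 thus lay on opposite sides of vehicle.

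Both controls placed most of the ACY1215 extremes alike. With shControl in place of vehicle the log2 folds were -0.68 for ACAT2, -0.72 for FADS2, -0.48 for EBP and -0.28 for IDI1, all still lower though EBP and IDI1 were short of 1.5-fold. On the higher side they were 1.09 for STARD4, 0.91 for ABCA1 and 2.69 for ABCG1. INSIG1, at 0.23, and MVK, at 0.029, changed sign, and MVD came to -0.039. Of the 33 counted members 9 lay above both controls in ACY1215, against 35.3% of all genes, and 11 below both, against 38.1%. The G2 and M phase genes had a median log2 fold of -1.28 in this pair, and their part in the members' values was not tested. The rows of TCP1 and SOD2, which overlap ACAT2, had 0.19 and -0.11; the strand setting of the counting is not given, so reads of overlapping genes may be shared.

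In the CAY10603 library members were lower than in vehicle, by small amounts. So were 21 of 33 members in shControl, with no HDAC6 intervention, at a median log2 fold over vehicle of -0.16 (all genes 0.014). In CAY10603, at any size 5 of 33 were higher and 28 lower, against 51.5% of all genes higher. Its median log2 fold was -0.13 against 0.0053 for all genes. By library total 2 of 33 were higher, with a median of -0.18, and the median of all genes moved to -0.044. None was at least 1.5-fold higher (0.344% of all genes) and none at least 1.5-fold lower (0.698% of all genes). The 5 lowest were FNTB, EBP at -0.43 (counting interval -0.54 to -0.32), INSIG1 at -0.39 (counting interval -0.51 to -0.28), MVD at -0.34 (counting interval -0.50 to -0.18) and FADS2 at -0.34 (counting interval -0.39 to -0.28). LPIN1 had -0.31, ELOVL6 -0.26, HMGCS1 -0.25, FADS1 -0.24 and FDFT1 -0.22, while HSD17B7, at -0.050, lay near vehicle. MVK, below 5 CPM, had -0.79 (counting interval -1.20 to -0.41), from 89 counts in CAY10603 and 143 in vehicle. The 4 members of SREBP control were lower, with SREBF2 at -0.18, SREBF1 at -0.14 and SCAP at -0.086 (counting interval -0.19 to 0.023), an interval that includes 0, and 8 of 9 sterol enzymes were lower too. Outside the members INSIG2 was at 0.23 (counting interval 0.083 to 0.38), MBTPS2 at 0.17 (counting interval -0.018 to 0.36) and MBTPS1 at -0.054 (counting interval -0.11 to 0.0029). The 5 members above vehicle were PMVK (0.11), FASN (0.070), FNTA, the alpha subunit of farnesyltransferase (0.024), ACACA (0.020) and NSDHL (0.018).

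With shControl in place of vehicle 13 of 33 members were higher in CAY10603, with a median of -0.097 against -0.0087 for all genes. INSIG1 then had 0.42, SREBF1 0.48 and SREBF2 0.22, all of the opposite sign, while EBP had -0.10 and FADS2 -0.30. Below both controls in CAY10603 were 16 of the 33 counted members, against 28.1% of all genes, among them ACAT2, HMGCS1, SQLE, LSS, CYP51A1, EBP, DHCR7, SCAP, NPC1, ACLY and FADS2. Above both was 1, FNTA, against 28.2% of all genes. Of the 42 other genes of the pathway 0 were at least 1.5-fold higher and 1 was lower.

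The 2 inhibitors share the vehicle library, and their doses and times are not known, so their values stand side by side. For ACY1215 and CAY10603 the log2 folds over vehicle were -0.86 and -0.25 for ACAT2, -0.81 and -0.43 for EBP, -0.76 and -0.34 for FADS2, and -0.64 and -0.19 for IDI1. On the transport side they were 0.73 and -0.068 for STARD4, 1.81 and 0.31 for ABCA1, 1.04 and -0.15 for ABCG1, and 0.30 and -0.17 for NPC1. The transport genes were near or below vehicle in CAY10603, apart from ABCA1, whose counting interval of -0.28 to 0.94 includes 0. With 1 library each these differences have no replicate check.

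The row of FNTB, the catalytic partner of FNTA in farnesyltransferase, was lower than its control in all 3 interventions, but it shares sequence with a much larger row. FNTB stood at 5.14 CPM in shHDAC6 against 6.82 CPM in shControl, and at 3.66 CPM in ACY1215 and 4.24 CPM in CAY10603 against 5.79 CPM in vehicle. Its log2 folds were -0.41 (counting interval -0.64 to -0.18) in shHDAC6, -0.65 (counting interval -0.94 to -0.38) in ACY1215 and -0.44 (counting interval -0.72 to -0.18) in CAY10603. The read-through row CHURC1-FNTB, which joins FNTB to the gene before it, stood at 49.6 CPM in shHDAC6 against 40.0 CPM in shControl, and at 62.2 CPM in ACY1215 and 54.2 CPM in CAY10603 against 52.7 CPM in vehicle, with log2 folds of 0.31 in shHDAC6, 0.24 in ACY1215 and 0.041 in CAY10603, opposite in sign to FNTB. Summed, a choice made after the values were seen, the rows had log2 folds of 0.23 in shHDAC6, 0.17 in ACY1215 and -0.00073 in CAY10603. The lower FNTB level therefore holds for the split of reads as deposited and not for the sum. FNTA lay near its control throughout, at 0.13, 0.011 and 0.024, and GGPS1, which makes geranylgeranyl diphosphate, at -0.037, -0.22 and -0.0017, in the same order.

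**Figure D4:**
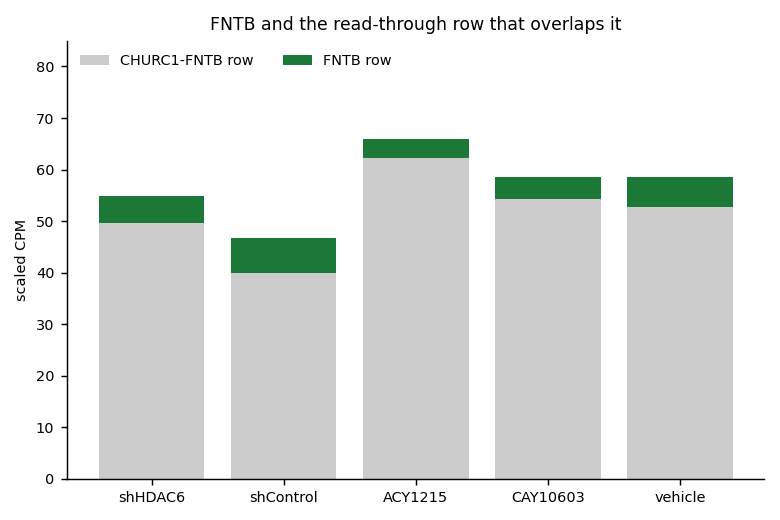
TMM-scaled CPM (y axis, from 0) of the FNTB row stacked on the CHURC1-FNTB read-through row in each library. The read-through row is 40.0 to 62.2 CPM and the FNTB row 3.66 to 6.82 CPM, and the stack is highest in ACY1215, where the FNTB row is smallest.

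The controls themselves differed in these genes, with neither carrying an HDAC6 intervention. In shControl 3 of 33 members were at least 1.5-fold lower than in vehicle, against 3.94% of all genes, and 0 were at least 1.5-fold higher, against 2.79%. The 3 were INSIG1 at -0.81 (counting interval -0.93 to -0.70), SCD at -0.77 (counting interval -0.81 to -0.74) and SREBF1 at -0.62 (counting interval -0.74 to -0.50). SCD stood at 221 CPM in shHDAC6 against 228 CPM in shControl, and at 419.9 CPM in ACY1215 and 367 CPM in CAY10603 against 389.6 CPM in vehicle, so both hairpin libraries were low and the 3 drug experiment libraries high, with no overlap. ABCG1, below 5 CPM, had -1.65 (counting interval -2.06 to -1.30) and ABCA1 0.90 (counting interval 0.39 to 1.48), opposite in sign. At any size 12 of 33 members were higher in shControl, against 52.3% of all genes, with a median log2 fold of -0.16 against 0.014. On the higher side lay ACSS2 at 0.52 and ACLY at 0.43, and SREBF2 (-0.41), MVD (-0.44) and STARD4 (-0.36) on the lower. Among the 42 other genes of the pathway 2 were at least 1.5-fold lower and 0 higher. Intervals above 0 in shHDAC6 over shControl and below 0 in both drugs over vehicle were found for 9 of 33 members, against 7.93% of all genes, and these members were all lower in shControl than in vehicle. Genes with any count numbered 18571 in shControl and 18719 in shHDAC6, against 22189 in vehicle, 21031 in ACY1215 and 21265 in CAY10603. The cause of that difference was not tested. Hairpin delivery, selection, the drug solvent and any other difference between the hairpin and drug experiments cannot be told apart.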

How the data were processed

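Expected counts per gene and FPKM of 5 RNA-seq libraries were used from 1 deposited table. The counts are whole numbers, headed count per the file headers, and the FPKM values were made by the authors and deposited with 2 decimals, per the file headers. RSEM 1.2.3, edgeR (version not given) and build hg19 are named in the submitters' processing notes, with no role for each. Trizol-extracted total RNA went into stranded libraries, per the labels' protocols. No aligner, annotation or strandedness option is stated in the sources used here. Of the rows, 2 blank ones were left out.

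The pooled fit used edgeR 4.0.16 in R 4.3.3 with TMM scaling, the quasi-likelihood test (robust) with hairpin or drug experiment as covariate, on genes reaching 1 CPM in 2 or more libraries, Benjamini-Hochberg adjusted at 0.05 over all of them. The SE is the log2 fold over the square root of F. Counts were whole, so no rounding was needed. The fit was tested on simulated data with planted folds. Pairs used a prior count of 2, a floor of 5 CPM, exact binomial counting intervals at 95% and no test. Alternatives were DESeq2 1.42.0, other scalings, filters, prior counts, the other control, FPKM + 0.1 on the log2 scale, and leaving out each library.

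Members and lists were chosen with earlier results of these data known. Every member is named by rule, and of 45 other pathway genes in the table those past 1.5-fold; genes of that list without a name are not reported here. Promoter sequences are from RefSeq.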

Additional observations from a re-analysis of the deposited data

Results flagged for a closer look

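For 10 of the 36 members the knockdown pair moved one way and both drug pairs the other, with counting intervals away from 0 in all 3, and each was higher in shHDAC6 and lower in the drugs. Above 5 CPM these were 9 of 33 members, and the same pattern held for 7.93% of 10741 genes. The difference between the interventions was not tested, since each has 1 library. The log2 folds, given for shHDAC6 over shControl, then ACY1215 and CAY10603 over vehicle, were as follows. MVK, mevalonate kinase and the widest gap, had 0.79, -0.61 and -0.79. MVD, the decarboxylase, had 0.52, -0.48 and -0.34. IDI1 had 0.29, -0.64 and -0.19. FDPS, the steadiest of these, had 0.13, -0.14 and -0.11. EBP, the sterol isomerase, had 0.29, -0.81 and -0.43. SREBF1 had 0.72, -0.29 and -0.14. SREBF2 had 0.53, -0.14 and -0.18. INSIG1, which retains SCAP, had 0.52, -0.58 and -0.39. The desaturase FADS1 had 0.17, -0.48 and -0.24. Its neighbour FADS2 had 0.28, -0.76 and -0.34. All 10 were lower in shControl than in vehicle, so the reference of the first fold was the lower control and that of the drug folds the higher one. With the controls exchanged (shHDAC6 over vehicle, the drugs over shControl) 1 of the 10, FADS2, kept the opposite signs. Both drug pairs share the vehicle library, so they are not 2 independent observations.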

How the results depend on the processing

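Calls of the pooled fit stayed at 0 members under DESeq2, DESeq2 size factors in edgeR, no filter, no covariate, and FNTB summed with CHURC1-FNTB. Without repressed HDAC6 replicate 2 (ACY1215) 4 genes were called, and without replicate 3 (CAY10603) 0, none of them members. Without shControl or shHDAC6 the group term rested on the drug libraries alone, and without vehicle on shHDAC6 against shControl alone. These fits cannot check the pooled result. Summing FNTB with CHURC1-FNTB, chosen after seeing the data, turned the pooled FNTB log2 fold to 0.15 (edgeR adjusted p = 1.00, as under every alternative) and the ACY1215 one to 0.17. No paired analysis was possible because the labels carry no replicate numbers, and those used here only name libraries; hairpin or drug experiment was a term of the fit.

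For shHDAC6 against shControl, 2 members were at least 1.5-fold higher with a floor of 1 CPM, 0 at 2-fold and 0 with vehicle as control, which also put 2 on the lower side and the median at -0.035. All genes apart numbered 1115 with the 1 CPM floor, 74 at 2-fold and 654 with vehicle as control, against 539. For ACY1215, 10 members were higher at any size by library total (median -0.12, all genes -0.10) and 10 by FPKM (median -0.13, all genes -0.10). With a floor of 1 CPM 3 members were at least 1.5-fold higher, with ABCA1 and ABCG1 added, and 2476 genes were apart, against 1463. At 2-fold 0 members were higher, 0 lower and 505 genes apart. With shControl as control 2 members were at least 1.5-fold higher and 3 lower, 1182 genes were apart, and MVK turned to 0.029. For CAY10603, 2 members were higher at any size by library total (median -0.18, all genes -0.044) and 2 by FPKM (median -0.19, all genes -0.045). With a floor of 1 CPM 1 member was at least 1.5-fold lower and 460 genes were apart, against 112, and at 2-fold 29. With shControl as control 1 member was 1.5-fold higher, 1 lower, 13 higher at any size and 575 genes apart. For shControl against vehicle, a floor of 1 CPM gave 1 member higher, 5 lower and 1507 genes apart, against 723, and 2-fold gave 0 members lower and 152 genes. The cause was not tested where no construction explains a shift. Members below 5 CPM rest on 42 to 508 counts in the drug pairs, so depth limits them.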
